A study of Mus musculus with 4 samples.

Results

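The genes described here encode the machinery by which transforming growth factor β (TGF-β) is made, released and sensed in cultured mouse T helper 17 (Th17) cells. They are the ligands Tgfb1 and Tgfb3, the ligand-processing protease Furin, the latency protein gene Ltbp3, the integrin chains Itgav and Itgb8, the receptors Tgfbr1, Tgfbr2 and Tgfbr3, and the feedback gene Pmepa1. The 10 genes were chosen by name from the 19555 gene rows, and all 10 had a row in all 4 libraries. Naive CD4+ T cells taken from C57BL/6 lymph nodes and spleens were cultured for 3 days with interleukin 6 and TGF-β1, and their total RNA was sequenced. The groups were wild type (WT) at 37 °C, WT at the fever-range temperature of 39.5 °C, and cells labelled Smad4 knockout (KO) at each of these temperatures, with 1 library in each group. Added TGF-β1 was therefore common to all 4 cultures. Not given in the sources used here were the Smad4 allele, the driver of its deletion, the age of the mice, any pooling of animals and whether cultures came from separate animals.

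TGF-β is made as a precursor that furin, a proprotein convertase, cuts into a mature dimer and a latency peptide that stays wrapped around it. Latent TGF-β binding proteins hold this complex in the matrix, and integrins such as αvβ8 bind a short sequence in the latency peptide and free the ligand. The freed dimer brings together the type 2 receptor TGFBR2 and the type 1 receptor TGFBR1, which phosphorylates SMAD2 and SMAD3, and these act with SMAD4 in the nucleus. In CD4+ T cells the pathway is known for driving both regulatory T cells and, together with interleukin 6, Th17 cells.

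The sequences below show where furin and the αv integrins meet the ligands measured here, and they are the reason Furin, Itgav and Itgb8 stand beside Tgfb1 and Tgfb3. They were read from GENCODE vM21 coding transcripts on GRCm38, the assembly that mm10 denotes. Capitals mark the codons of the furin motif (arginine, any residue, lysine or arginine, arginine) just before the mature peptide, or of the arginine-glycine-aspartate (RGD) integrin motif. The furin motif was searched only directly before alanine-leucine-aspartate, the start of the mature peptide, so matches elsewhere were not looked for. The RGD motif was searched over the whole coding sequence. In these searches each motif was found 1 time in each ligand, in exon 5 of 7.
Tgfb1 furin site, chr7:25697229-25697252, plus strand, codons 275 to 278: agctcaCGGCACCGGAGAgccctg
Tgfb3 furin site, chr12:86062048-86062071, minus strand, codons 297 to 300: agtcagAGGAAGAAGAGGgccctg
Tgfb1 RGD site, chr7:25697136-25697156, plus strand, codons 244 to 246: aaacgtCGGGGCGACctgggc
Tgfb3 RGD site, chr12:86062159-86062179, minus strand, codons 261 to 263: catggcCGTGGAGACctgggg
Both ligand genes thus carry both sites, so the same protease and integrin genes bear on either ligand.

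Expression was deposited as RPKM, read numbers divided by the summed exon length of a gene and by library size. The values fell on whole reads once multiplied back, and each library held between 18047831 and 18473822 recovered reads. With 1 library a group, no ratio between a pair of libraries has a replicate check, and the 95% intervals given are exact and cover counting error only. The Smad4 label was checked first. In WT, Smad4 measured 14.0 RPKM at 37 °C and 14.2 RPKM at 39.5 °C, against 20.7 and 21.3 RPKM under the Smad4 KO label, so total Smad4 RNA was higher under the KO label. A value summed over the whole gene does not show whether single exons were lost, and every genotype direction below is that of the label. All 11 CD4+ T cell and Th17 marker genes were present, with Cd4 at 192 to 212 RPKM. Markers of the Th17 state moved with the label. Il17a, the signature Th17 cytokine gene, measured 134 RPKM in WT at 37 °C and 686 RPKM at 39.5 °C, against 32.6 and 79.7 RPKM under the KO label. In the limma fit set out below, 4 of the 11 fell with the label and 1 rose, where 4.70% and 8.57% of all rows did. Those that fell were Il17a (by 2.55 on the log2 scale, adjusted p = 0.014), Il17f (by 1.76, adjusted p = 0.015), the chemokine receptor gene Ccr6 (by 2.24, adjusted p = 0.0062) and Rora (by 1.30, adjusted p = 0.016), and Cd3g rose by 0.65 (adjusted p = 0.048). The part of this shift in the differences by label was not tested. Of 18 marker genes of CD8, NK, B, myeloid, platelet, fibroblast and erythroid cells, 8 had a row, and their summed level was 3.95 to 6.25 RPKM. Cd8b1 was the highest of these in every library, and the platelet gene Itga2b, a marker of cells rich in TGF-β1, stayed between 0.0705 and 0.219 RPKM. The part of other cell types in the results was not tested beyond these values.

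Changes were counted in 2 ways. Each pair of libraries was compared as a difference of log2(RPKM + 1), and called changed from 2-fold on, without a p-value. Differences common to both temperatures or both genotype labels were tested with limma in an additive model of the 4 libraries, with p-values adjusted over all genes by the Benjamini-Hochberg method. Both used the 13715 rows averaging 1 RPKM or more. Of the 10 genes, 8 passed that filter, and Ltbp3 and Itgb8, at low levels, did not. Tgfb3 passed it only through the KO-labelled library at 37 °C.

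The 10 genes spanned a wide range of levels. In WT at 37 °C the order by RPKM was Tgfb1, Furin, Pmepa1, Tgfbr2, Tgfbr3, Tgfbr1, Itgav, Tgfb3, Ltbp3 and Itgb8. Tgfb1 was higher than 96.5% of all rows there, Tgfbr1 than 47.3% and Itgb8 than 4.75%. The first 4 places were the same in all 4 libraries. With the KO label at 37 °C Tgfb3 moved up to the fifth place, ahead of all receptors but Tgfbr2. Neighbours in the order were not always apart: Tgfbr3 and Tgfbr1 stood at 5.53 and 5.52 RPKM in WT at 39.5 °C, and the counting intervals of Tgfb3 and Ltbp3 overlapped in both WT libraries.

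**Figure D1:**
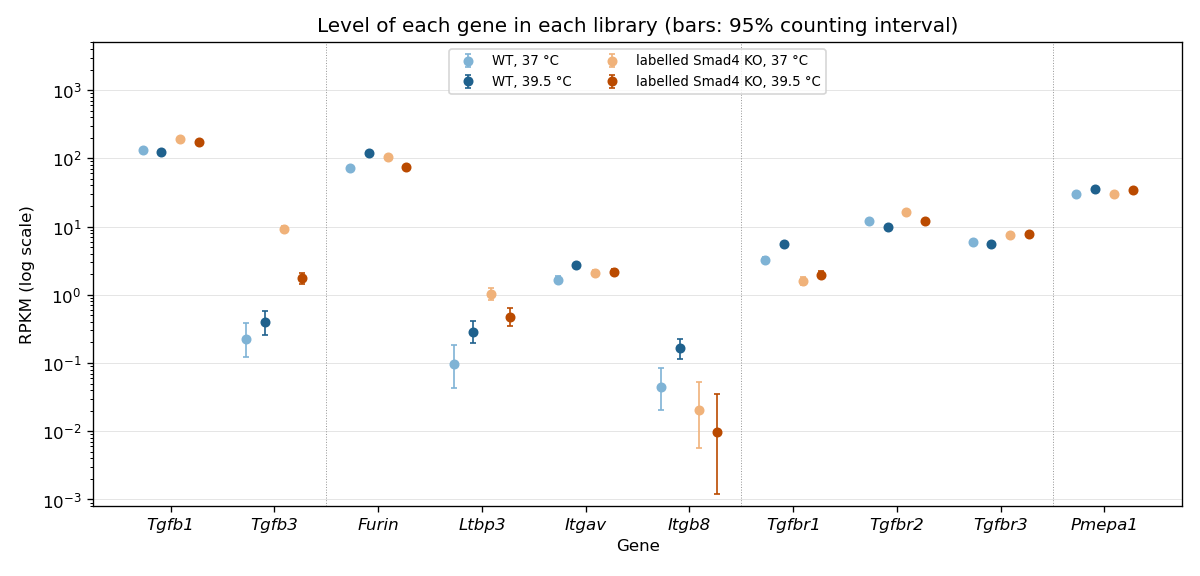
RPKM (log scale) of each of the 10 genes in the 4 libraries; points are single libraries and bars are 95% counting intervals, with dotted lines between ligands, processing and activation genes, receptors and the feedback gene. Tgfb3 stands at 9.30 RPKM under the KO label at 37 °C and at no more than 1.73 RPKM in the others, and Itgb8 stays under 0.2 RPKM throughout.

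Among the ligands, both Tgfb1 and Tgfb3 rose with the Smad4 KO label, from very different levels. Tgfb1, the main TGF-β isoform of immune cells (chromosome 7, 25687002 to 25705077, plus strand), stood at 134 RPKM in WT at 37 °C, 124 RPKM in WT at 39.5 °C, 189.6 RPKM under the KO label at 37 °C and 172 RPKM under it at 39.5 °C. Both KO-labelled libraries lay above both WT libraries. At 37 °C they differed 1.41-fold (95% interval 1.38 to 1.45) and at 39.5 °C 1.38-fold (1.35 to 1.41). In the limma fit Tgfb1 rose with the label by 0.48 ± 0.11 on the log2 scale (SE; adjusted p = 0.047). The temperature ratios of Tgfb1 were close to 1, at 0.929 (0.906 to 0.953) in WT and 0.905 (0.886 to 0.925) under the KO label. These RNAs come from bulk cultures, in which fewer cells of a type and less RNA per cell cannot be told apart.

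Tgfb3, a second isoform that binds the same receptors, showed the widest span of the 10 genes. It lies on chromosome 12, 86056745 to 86079041, on the minus strand. It had 14 reads in WT at 37 °C (0.227 RPKM), 26 in WT at 39.5 °C (0.398 RPKM), 555 under the KO label at 37 °C (9.30 RPKM) and 108 under it at 39.5 °C (1.73 RPKM). Both KO-labelled libraries lay above both WT libraries, that at 37 °C by far the higher, and neither counting interval reached a WT one. At 39.5 °C the level under the KO label was still low, above 37.4% of all rows. Under the KO label it was higher than in WT by a ratio of 40.9 (24.2 to 75.4) at 37 °C and 4.36 (2.82 to 6.97) at 39.5 °C. In the limma fit Tgfb3 rose with the label by 2.02 ± 0.47 on the log2(RPKM + 1) scale (adjusted p = 0.049). Tgfb3 passed the filter on low values only through the KO-labelled library at 37 °C. Its label test thus used a gene selected through the group where it is high. Both ligand calls lay close to the threshold and were lost without a variance trend, at an adjusted p of 0.067 for Tgfb1 and 0.054 for Tgfb3.

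The temperature differences of Tgfb3 were unlike in the 2 genotype labels. In WT the ratio of 39.5 to 37 °C was 1.75, with an interval of 0.882 to 3.63 that holds 1. Under the KO label it was 0.186 (0.150 to 0.229), that is 5.36-fold lower at 39.5 °C. The ratio of these 2 ratios was 0.106 (0.0499 to 0.220). With 1 library a group this difference has no test. As a consequence of both ligands' levels, the RPKM of Tgfb1 exceeded that of Tgfb3 by 590-fold in WT at 37 °C, 313-fold in WT at 39.5 °C, 20.4-fold under the KO label at 37 °C and 99.0-fold under it at 39.5 °C. Annotated genes on the opposite strand, Gm37804 and Gm48008, share 163 and 257 exon bases with Tgfb3, and whether the libraries kept strand was not stated, so reads there cannot be assigned to a strand.

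Furin, the convertase gene on chromosome 7 (80388585 to 80405436, minus strand), responded to temperature in opposite directions in the 2 genotype labels. Furin measured 73.2 RPKM in WT at 37 °C (12245 reads), 121 RPKM in WT at 39.5 °C (21501 reads), 105 RPKM under the KO label at 37 °C (17009 reads) and 73.6 RPKM under it at 39.5 °C (12443 reads). WT at 37 °C and the KO label at 39.5 °C were the low pair, and the other 2 libraries the high pair. The ratio of 39.5 to 37 °C was 1.66 (1.62 to 1.69) in WT and 0.701 (0.685 to 0.717) under the KO label. Read by label, the ratio to WT was 1.43 (1.40 to 1.47) at 37 °C and 0.607 (0.594 to 0.621) at 39.5 °C. The ratio of the temperature ratios was 0.423 (0.410 to 0.437). In the additive fit, which has no term for such crossing, Furin had a genotype coefficient of −0.10 ± 0.29 (adjusted p = 0.83) and a temperature coefficient of 0.11 ± 0.29 (adjusted p = 0.903).

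Ltbp3, a latent TGF-β binding protein gene on chromosome 19 (5740904 to 5758532, plus strand), was low in all libraries and, like Furin, moved oppositely with temperature in the 2 labels. It had 9 reads in WT at 37 °C (0.0952 RPKM), 29 in WT at 39.5 °C (0.289 RPKM), 94 under the KO label at 37 °C (1.03 RPKM) and 45 under it at 39.5 °C (0.471 RPKM). The KO-labelled library at 37 °C was the highest and WT at 37 °C the lowest. Between labels Ltbp3 had a ratio of 10.8 (5.45 to 24.3) at 37 °C and 1.63 (0.998 to 2.69) at 39.5 °C. The temperature ratio was 3.04 (1.40 to 7.30) in WT and 0.459 (0.314 to 0.661) under the KO label. The reads follow from an exon length of 5190 bases, the shortest that gives whole reads, because the annotated 9069 bases did not. The low level kept Ltbp3 out of the limma fit.

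The integrin chains behaved differently from each other. Itgav, which encodes the αv chain shared by several integrins (chromosome 2, 83724397 to 83806916, plus strand), measured 1.67 RPKM in WT at 37 °C, 2.73 RPKM in WT at 39.5 °C, and 2.07 and 2.17 RPKM under the KO label. WT at 39.5 °C was the highest. The temperature ratio was 1.63 (1.42 to 1.88) in WT and 1.05 (0.912 to 1.21) under the KO label, whose interval holds 1. The ratio to WT was 1.24 (1.07 to 1.44) at 37 °C and 0.797 (0.701 to 0.905) at 39.5 °C. Itgav passed neither limma test (genotype adjusted p = 0.96, temperature 0.56).

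Itgb8, the β8 chain that pairs with αv to release TGF-β, was near the limit of detection. It lies on chromosome 12, 119158022 to 119238802, on the minus strand. It had 9 and 35 reads in WT at 37 and 39.5 °C (0.0447 and 0.164 RPKM) and 4 and 2 reads under the KO label (0.0205 and 0.00982 RPKM). WT at 39.5 °C was the highest of the 4. The temperature ratio in WT was 3.67 (1.73 to 8.68), and the ratio of the KO label to WT at 39.5 °C was 0.0599 (0.00698 to 0.233), 16.7-fold lower. At 37 °C the ratio between labels was 0.459 (0.103 to 1.64), and under the KO label the temperature ratio was 0.479 (0.0433 to 3.34), so neither difference was detectable at this depth. Foxp3, the lineage factor gene of regulatory T cells, a cell type that expresses Itgb8, was at 7.80, 5.10, 1.98 and 0.477 RPKM in that order of libraries. Foxp3 and Itgb8 were both lower under the KO label at 39.5 °C. In WT, however, Foxp3 was lower and Itgb8 higher at 39.5 than at 37 °C. Foxp3 was looked at after its values were seen, and its part in the Itgb8 values was not tested. Per unit of exon length, Itgav exceeded Itgb8 in every library, by 16.6-fold in WT at 39.5 °C and by 221-fold under the KO label at 39.5 °C.

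Of the receptor genes, Tgfbr1 fell with the Smad4 KO label while Tgfbr2 and Tgfbr3 did not pass the test. Tgfbr1 encodes the type 1 kinase that phosphorylates SMAD2 and SMAD3 (chromosome 4, 47353222 to 47414931, plus strand). Tgfbr1 measured 3.21 RPKM in WT at 37 °C, 5.52 RPKM in WT at 39.5 °C, 1.60 RPKM under the KO label at 37 °C and 1.98 RPKM under it at 39.5 °C. Both KO-labelled libraries lay below both WT libraries. Relative to WT, these were at 0.497 (0.415 to 0.595) at 37 °C and 0.359 (0.308 to 0.416) at 39.5 °C. In the limma fit the log2 level fell by 0.91 (SE 0.16, adjusted p = 0.029). The temperature ratio was 1.72 (1.52 to 1.95) in WT and 1.24 (1.02 to 1.51) under the KO label, higher at 39.5 °C in both, and the limma temperature test gave an adjusted p of 0.35. All ratios here are of RPKM, and the limma coefficient is on the log2(RPKM + 1) scale, which understates changes at such low levels.

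Tgfbr2, the type 2 kinase that binds ligand first (chromosome 9, 116084293 to 116175360, minus strand), stood at 12.1, 9.88, 16.3 and 12.2 RPKM in the order WT at 37 and 39.5 °C, KO label at 37 and 39.5 °C. The KO-labelled library at 37 °C was the highest, and the one at 39.5 °C was level with WT at 37 °C. The KO label stood to WT at 1.35 (1.27 to 1.44) at 37 °C and 1.23 (1.15 to 1.32) at 39.5 °C. The temperature ratio was below 1 in both labels, at 0.819 (0.765 to 0.877) in WT and 0.748 (0.704 to 0.796) under the KO label. Neither limma test passed (genotype adjusted p = 0.12, temperature 0.34). Together with Tgfbr1 this put the RPKM ratio of Tgfbr2 to Tgfbr1 at 3.76 in WT at 37 °C, 1.79 in WT at 39.5 °C, 10.2 under the KO label at 37 °C and 6.17 under it at 39.5 °C.

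Tgfbr3 encodes betaglycan, a co-receptor that presents ligand to the type 2 receptor (chromosome 5, 107106570 to 107289629, minus strand). It stood at 5.87, 5.53, 7.58 and 7.86 RPKM in that order of libraries, with both KO-labelled libraries above both WT libraries. Betaglycan RNA under the KO label was 1.29 (1.17 to 1.43) at 37 °C and 1.42 (1.29 to 1.57) at 39.5 °C times the WT level, and both temperature ratios had intervals that hold 1. The genotype coefficient of 0.38 ± 0.13 had an adjusted p of 0.102 in limma.

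Pmepa1 encodes a membrane protein that is induced by TGF-β and dampens it by binding receptor-activated SMADs (chromosome 2, 173224458 to 173276533, minus strand). It was the most even of the abundant genes, at 30.3, 35.4, 30.4 and 33.9 RPKM in that order of libraries. The libraries paired by temperature, not by label. Between labels the ratio was 1.005 (0.952 to 1.06) at 37 °C and 0.958 (0.912 to 1.01) at 39.5 °C, and both intervals hold 1. The temperature ratio was 1.17 (1.11 to 1.23) in WT and 1.11 (1.06 to 1.17) under the KO label. Neither limma test passed (genotype adjusted p = 0.89, temperature 0.56).

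**Figure D2:**
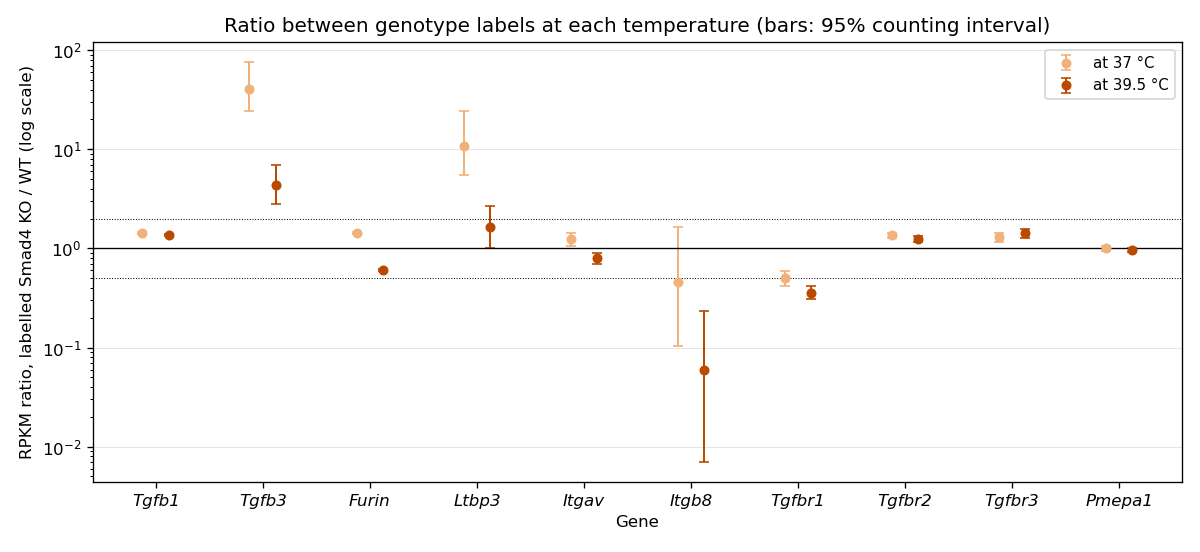
RPKM ratio, KO label over WT (log scale), for each of the 10 genes at 37 and 39.5 °C; bars are 95% counting intervals and dotted lines mark 2-fold. Tgfb3 stands highest at both temperatures (40.9 and 4.36), Tgfbr1 lies below 1 at both, and Furin and Itgav lie above 1 at 37 °C and below it at 39.5 °C.

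Counted over the 8 genes that passed the filter, the Smad4 KO label moved few of them past 2-fold. At 37 °C, 1 of the 8, Tgfb3, was at least 2-fold higher and 0 were lower, where 4.70% and 1.14% of all rows were called (5.84% in either direction). Tgfbr1 was past 2-fold there as a ratio of RPKM, at 0.497, but not on the log2(RPKM + 1) scale of the rule, at −0.70. At 39.5 °C, 0 were higher and 1 was lower, Tgfbr1, where 2.30% and 1.05% of all rows were called (3.35% in either direction). Tgfb3 was just short of the 2-fold rule there, at 0.97 on the log2(RPKM + 1) scale. The median log2 difference of the 8 genes was 0.36 at 37 °C and 0.11 at 39.5 °C, against −0.01 and 0.00 for all rows. In limma 3 of the 8 passed for the label, Tgfb1 and Tgfb3 rising and Tgfbr1 falling, where 13.3% of all rows passed. Tgfb3 was among the 8 only through the KO-labelled library at 37 °C. With no filter on low values 0 rows of the whole table passed limma (5396 at an unadjusted p under 0.05), and the 3 genes had adjusted p of 0.090, 0.12 and 0.085 there.

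Temperature moved fewer of the 8 genes than the label did in the limma fit, where 0 passed and 3 of all rows (0.0219%) did, 0.0146% higher and 0.00729% lower. At an unadjusted p under 0.05 the limma fit had 1914 rows, 14% of all rows. Among them were 2 of the 8 genes, Tgfbr1, higher at 39.5 °C, and Tgfbr2, lower. In WT, 0 of the 8 were at least 2-fold changed, where 1.98% of all rows were (1.46% higher, 0.525% lower). Under the KO label 1 of the 8, Tgfb3, was at least 2-fold lower, where 0.911% of all rows were, and 0 were higher, where 0.751% were. The median log2 difference was 0.20 in WT and −0.05 under the KO label, against −0.02 and −0.01 for all rows. The difference between these responses was at least 2-fold, with the KO-labelled response the lower, for 2 of the 8, Tgfb3 (−2.10 on the log2 scale) and Furin (−1.23), where 1.55% of all rows were called. The other direction held 0 of the 8 and 0.671% of all rows, and both directions together 2.22%. These 2 temperature pairs share no library with each other. Tgfb3 was among the 8 only through the KO-labelled library at 37 °C. That library enters both its temperature ratio under the KO label and its difference of responses. Both Tgfb3 calls thus used a gene selected through the group where it is high.

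**Figure D3:**
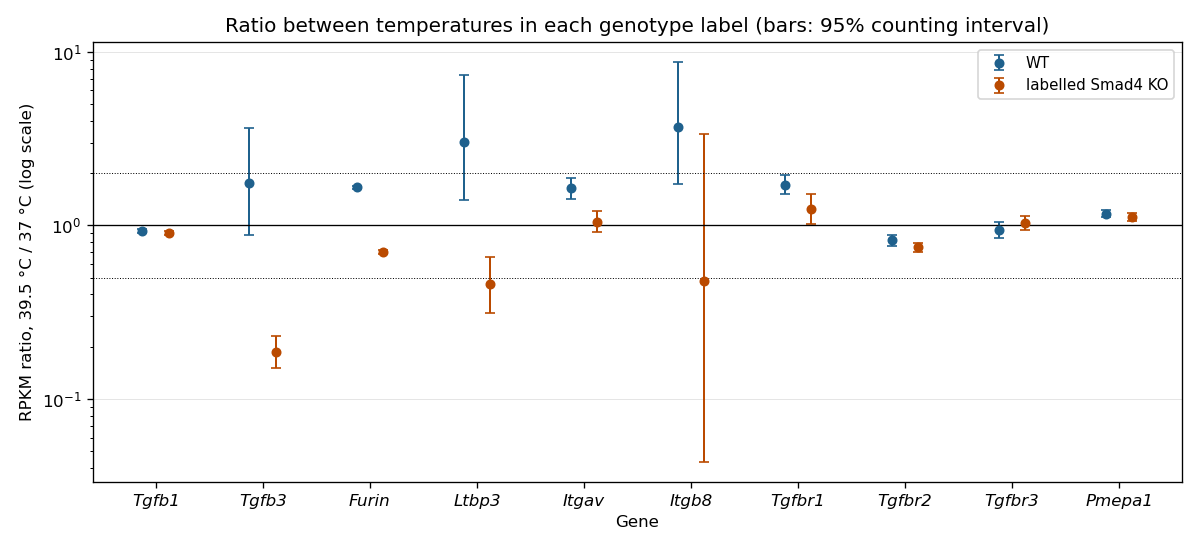
RPKM ratio of 39.5 to 37 °C (log scale) for each of the 10 genes in WT and under the KO label; bars are 95% counting intervals and dotted lines mark 2-fold. Furin and Ltbp3 lie above 1 in WT and below 1 under the KO label, while Tgfb1, Tgfbr2 and Pmepa1 have like ratios in both.

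Promoters were read from RefSeq on GRCm38.p6, where 7 of the 10 genes matched, with 9 windows. No window was found for Tgfb3, which had the widest span of the 10 genes, nor for Tgfbr3 and Pmepa1. Each window runs from 250 bases before the start of transcription to 30 after it. Motifs were searched on both strands: CAGAC, the SMAD box; TGANTCA, the AP-1 site; and GAANNTTC, the core of the heat shock element. Ltbp3, Furin and Tgfbr1 are shown because the first 2 crossed in their temperature response and the last fell with the label. Capitals mark motif matches.
Ltbp3, chr19:5740650-5740929, plus strand: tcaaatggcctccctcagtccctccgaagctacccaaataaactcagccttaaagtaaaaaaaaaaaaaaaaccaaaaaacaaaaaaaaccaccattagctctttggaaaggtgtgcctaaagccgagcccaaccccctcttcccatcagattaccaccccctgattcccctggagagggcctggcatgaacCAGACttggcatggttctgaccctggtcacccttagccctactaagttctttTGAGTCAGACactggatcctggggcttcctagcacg
Furin, chr7:80405407-80405686, minus strand: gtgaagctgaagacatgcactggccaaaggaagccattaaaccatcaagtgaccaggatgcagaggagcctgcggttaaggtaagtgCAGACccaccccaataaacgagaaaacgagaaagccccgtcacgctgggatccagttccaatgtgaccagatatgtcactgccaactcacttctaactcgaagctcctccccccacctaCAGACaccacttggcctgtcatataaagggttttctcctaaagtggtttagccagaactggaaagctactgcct
Tgfbr1, chr4:47352972-47353251, plus strand: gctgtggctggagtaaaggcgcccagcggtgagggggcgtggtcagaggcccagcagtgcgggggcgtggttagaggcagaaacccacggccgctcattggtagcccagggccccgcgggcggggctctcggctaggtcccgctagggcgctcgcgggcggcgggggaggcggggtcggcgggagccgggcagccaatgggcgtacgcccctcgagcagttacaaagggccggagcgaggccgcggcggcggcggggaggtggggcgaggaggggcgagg
The Ltbp3 window held 2 CAGAC matches and 1 TGANTCA match, and the second CAGAC shares its first 2 bases with the end of the AP-1 letters at the transcription start. The Furin window shown held 2 CAGAC matches and the Tgfbr1 window shown none of the 3 motifs. A second Tgfbr1 window, around a start at 47386216, held 1 CAGAC match, as did a second Furin window. Over the 9 windows, CAGAC was found in 6, TGANTCA in 1 and GAANNTTC in 0. Of 32851 windows of the same length, 46.8% held CAGAC, 7.46% TGANTCA and 7.38% GAANNTTC. A match describes letters only and is no evidence of binding.

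The rest of the pathway was read from 5 lists. Among other ligands, which include the activin subunit genes Inha and Inhba, 6 of 13 listed genes had a row and 3 passed the filter, of which 0 passed limma for either term; 1 had an unadjusted p under 0.05 for the label and 2 for temperature, where 34.6% and 14% of all rows did. Tgfb2, the remaining TGF-β isoform, reached at most 0.0805 RPKM. Among other receptors and co-receptors, 12 of 15 had a row and 8 passed the filter. Of these 0 passed limma, and 5 had an unadjusted p under 0.05 for the label and 4 for temperature, beside the same 34.6% and 14% of all rows. At least 2-fold higher at 39.5 °C in both labels were Nrp1, which encodes a semaphorin receptor that also binds TGF-β, and Eng, which encodes the co-receptor endoglin. Of all rows, 1.46% were that much higher in WT and 0.751% under the KO label, and the share in both was not counted. Nrp1 measured 0.870 RPKM at 37 °C and 7.59 RPKM at 39.5 °C in WT, against 0.330 and 2.83 RPKM under the KO label. Eng measured 1.56 RPKM at 37 °C and 9.97 RPKM at 39.5 °C in WT, against 3.71 and 8.83 RPKM under the KO label. Their limma temperature coefficients of 1.86 ± 0.20 and 1.58 ± 0.26 had adjusted p of 0.070 and 0.11. The Nrp1 temperature test passed in 3 of 5 alternatives (adjusted p 0.0013 to 0.28, log2 1.86 to 3.11). Its label test also passed in 3 of 5 (adjusted p 0.0022 to 0.12, log2 −1.41 to −0.83). Eng passed for temperature with limma-voom alone (adjusted p = 0.028). Nrp1 was under 1 RPKM in both libraries at 37 °C and passed the filter only through those at 39.5 °C. Its temperature test thus used a gene selected through the group where it is high, and with no filter the limma adjusted p was 0.28.

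Among other latency and activation genes, 16 of 21 had a row and 6 passed the filter; 1 rose and 2 fell with the label. Lrrc32, which encodes the surface carrier of latent TGF-β, GARP, rose by 3.83 ± 0.27 on the log2 scale (adjusted p = 0.0074 in limma). It stood at 1.99, 0.674, 61.6 and 15.1 RPKM in the order WT at 37 and 39.5 °C, KO label at 37 and 39.5 °C. Like Tgfb3, it was highest in the KO-labelled library at 37 °C. Bmp1, a metalloproteinase gene whose product cuts LTBP1, fell by 1.18 (SE 0.15, adjusted p = 0.016), from 2.27 and 5.21 RPKM in WT to 0.530 and 1.57 RPKM under the KO label. Itgb1, which encodes the β1 chain that also pairs with αv, fell by 0.57 (SE 0.12, adjusted p = 0.042), a call lost without a variance trend (adjusted p = 0.051).

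Among receptor adaptors and turnover genes all 15 had a row and 11 passed the filter; 1 rose and 2 fell with the label. Fkbp1a, whose product FKBP12 binds the type 1 receptor and keeps it inactive, rose by 0.61 ± 0.13 on the log2 scale (adjusted p = 0.042 in limma), which was lost without a variance trend (adjusted p = 0.060). Uchl5, a deubiquitinase gene, fell by 0.73 (SE 0.13, adjusted p = 0.026), and Wwp1, a ubiquitin ligase gene, fell by 0.58 (SE 0.13, adjusted p = 0.045). Among SMADs and their co-repressors, 12 of 13 had a row and 11 passed the filter; 3 rose with the label and 0 fell. Those that rose were Smad3 (0.66 ± 0.12, adjusted p = 0.031), the inhibitory Smad7 (0.59 ± 0.13, adjusted p = 0.045) and Smad4 itself (0.54 ± 0.12, adjusted p = 0.045, and 0.052 without a variance trend). All calls by label in these lists were lost with no filter on low values. In all 5 lists 0 genes passed limma for temperature in the setting reported, while Nrp1, Eng, Lrrc32 (adjusted p = 0.0054) and Bmp1 (0.015) did with limma-voom. At an unadjusted limma p under 0.05 for temperature there were 3 of the 6 latency and activation genes and 0 of the 11 adaptors. The SMADs and co-repressors had 3 of 11 there, where 14% of all rows had such a p. The share of all rows passing for the label was 8.57% rising and 4.70% falling.

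**Figure D4:**
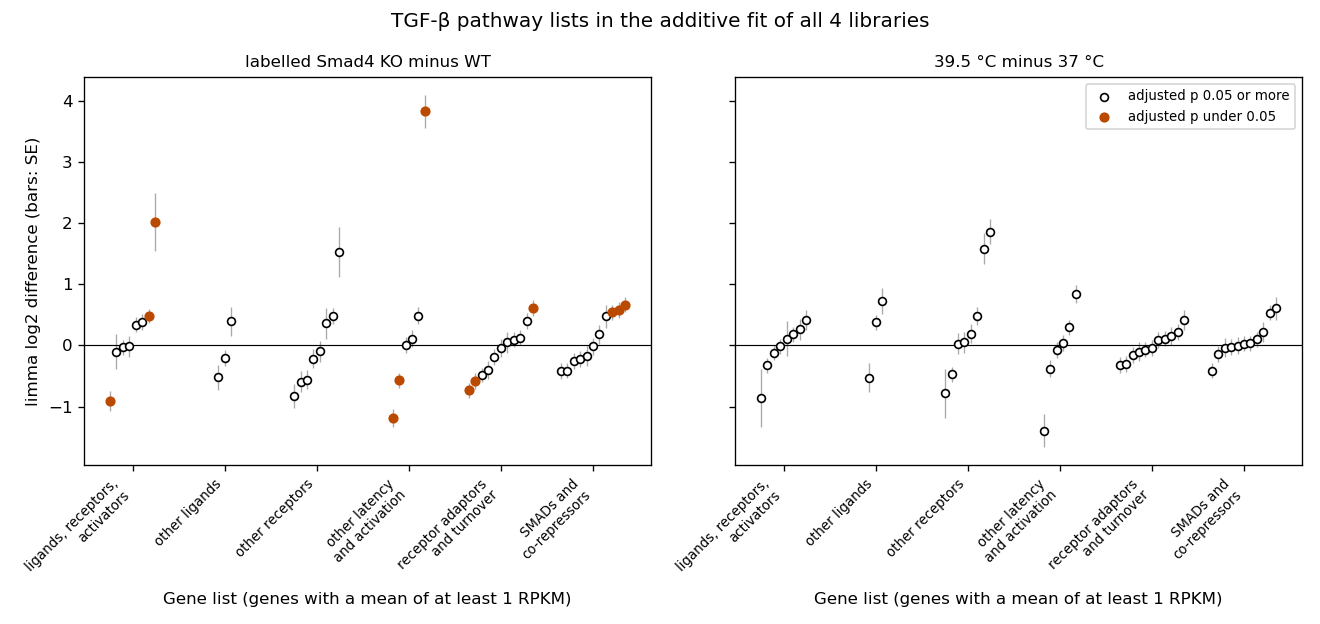
limma log2 difference of each gene averaging 1 RPKM or more, by list, for the Smad4 KO label minus WT (left) and 39.5 minus 37 °C (right); bars are SE and filled points have an adjusted p under 0.05. Lrrc32 at 3.83 and Tgfb3 at 2.02 stand highest for the label, and no point is filled for temperature.

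Genes most like Tgfb3 and Tgfbr1 were sought by the distance between log2(RPKM + 1) values, each centred on its own mean, over the 4 libraries; the other 8 genes spanned less than 1 log2 unit and were left out. Nearest to Tgfb3 was Fam183b (distance 0.22), at 0.0968, 0.0913, 8.60 and 1.15 RPKM in that order of libraries, followed by RP24-455C11.4 (0.36) and Sdc4 (0.41), which encodes the heparan sulfate proteoglycan syndecan 4. Sdc4 stood at 3.60, 3.31, 24.9 and 6.97 RPKM. Nearest to Tgfbr1 were Mapre2 (distance 0.04), a microtubule end-binding protein gene, then Ppfibp1 (0.09) and Eea1 (0.12), which encodes an early endosome tether. Mapre2 stood at 6.78, 10.7, 3.77 and 4.53 RPKM. With 4 libraries, many of the 13715 rows can lie close to any pattern.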

How the data were processed

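The authors deposited 1 table of RPKM values per library. Per the submitters' processing notes, reads were handled on build mm10 with featureCounts from Subread, Bowtie2, Trim Galore 0.4.4 and edgeR, named without order. Which annotation release, strand setting and filters were used was not given in the sources used here. Of 13144 rows matched to 1 GENCODE vM21 gene, 91.7% gave whole reads in all 4 libraries at the annotated exon length (tolerance 0.01 reads), and other rows took the shortest length that did. The deposited scaling equalled 0.955 to 1.06 times the recovered reads.

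Ratios of RPKM carry 95% intervals (exact, Clopper-Pearson) from the reads of both libraries, and the ratio of ratios an exact conditional interval. The labels name no molecular identifiers, so PCR copies may count more than once and intervals cover counting error only. Tests used limma 3.58.1 in R 4.3.3: log2(RPKM + 1), rows averaging 1 RPKM or more, additive genotype and temperature terms, trended empirical Bayes, residual degrees of freedom 1 (median prior 4.47), adjusted p under 0.05. The error is thus the interaction and a trend over genes, not a spread between animals or cultures. Scripts were tested on simulated data. The 10 genes, the lists and the tests were chosen with earlier results of these data known. Named were all 10 genes. Of the other lists up to 5 genes each were named, either 2-fold changed in 1 direction in both pairs or past limma. Alternatives were a pseudocount of 0.1, no filter, upper quartile scaling, no variance trend and limma-voom on recovered reads. Some values are not reported here.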

Additional observations from a re-analysis of the deposited data

Results flagged for a closer look

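Furin was singled out because its 2 genotype labels moved in opposite directions with temperature, and its 2 temperatures in opposite directions with the label, each with a counting interval away from 1. The log2 response under the KO label minus that in WT was −1.23. Ltbp3 also moved in opposite directions with temperature (−0.70 on the log2(RPKM + 1) scale, from 9 to 94 reads a library). Itgav was higher under the KO label at 37 °C and lower at 39.5 °C (−0.44). With 1 library a group none of these differences was tested.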

How the results depend on the processing

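With a pseudocount of 0.1 more rows passed 2-fold: 1220 (801 with a pseudocount of 1) for the label at 37 °C, 866 (459) at 39.5 °C, 556 (272) for temperature in WT, 458 (228) under the KO label and 628 (304) for the difference of responses. The members past 2-fold at 39.5 °C by label went from 1 to 2. The limma temperature count, 3 in the setting reported, was 30 with a pseudocount of 0.1, 0 with no filter, 87 with upper quartile scaling, 0 without a trend and 352 with limma-voom. The limma label count, 1820 in the setting reported, was 0 with no filter and 2923 with limma-voom. Of the 10 genes 3 passed for the label, 0 with no filter and 1 without a trend, Tgfbr1. The adjusted p over the 5 alternatives ran from 0.037 to 0.090 for Tgfb1, from 0.0068 to 0.12 for Tgfb3 and from 0.0041 to 0.085 for Tgfbr1. The Tgfbr3 temperature coefficient, −0.01, turned to 0.0080 with upper quartile scaling. With no filter, 5396 rows for the label and 2270 for temperature had an unadjusted limma p under 0.05, and without a trend 1885 did for temperature. The cause of these shifts was not tested. No replicate could be left out, and no paired analysis was possible because each group has 1 library. Depth limits Itgb8 and Ltbp3.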
